A study of Mus musculus with 96 samples.

Results

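Planar cell polarity is the signalling system by which cells of an epithelium align with each other within the plane of the tissue, and in vertebrates the same genes drive the narrowing and lengthening of the neural plate and the closure of the neural tube. Its core is built on the cell membrane: the atypical cadherins Celsr1, Celsr2 and Celsr3 bridge neighbouring cells, the membrane proteins Vangl1 and Vangl2 gather on a face of the cell with the cytoplasmic LIM-domain proteins Prickle1 and Prickle2, and Frizzled receptors with Dishevelled gather on the opposite face. The receptor kinases Ror1 and Ror2 and the pseudokinase Ryk bind Wnt ligands and feed into the same pathway. These 10 genes, taken by symbol, are described here, out of 22422 genes held in the data. Mouse mutations in Vangl2 or Celsr1 can leave the neural tube open, and Celsr3 and Ryk are also known for the guidance of axons.

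Ribosome footprints (ribosome-protected mRNA fragments) and poly(A) RNA were sequenced from neural tubes of C3HeB mouse embryos at E11.5 that carried 1 copy of the Eif3c Xs-J allele (called mutant here) and of C3HeB wild-type embryos. The allele is present in every cell of the embryo, and Eif3c encodes a subunit of eIF3, the factor that brings the small ribosomal subunit to mRNA. Dissociated cells of the neural tubes of 1 litter were split between both assays, which gave 3 pools a genotype and 12 libraries. No label ties the pools to separate litters, so p-values measure only the spread between pools. Coding counts were 9.57M to 13.1M in mutant RNA and 7.20M to 13.1M in wild-type RNA, and 11.3M to 14.8M in mutant footprints against 17.3M to 59.2M in wild-type footprints (M, counts in units of 1000000).

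The targeted gene followed the labels: Eif3c had 296, 290 and 302 CPM in mutant RNA and 518, 497 and 474 CPM in wild-type RNA. CPM are coding counts of a library scaled to a total of 1000000 with TMM factors. The log2 change of Eif3c was −0.75 ± 0.06 (SE) in RNA (edgeR quasi-likelihood test, adjusted p = 6.14e-04) and −0.98 ± 0.07 in footprints (adjusted p = 0.00131). A pair of mutant pools stood apart from the others. In mutant pool 1 the summed RNA of 10 erythroid markers was 6492 CPM, while mutant pools 2 and 3 had 3435 and 2861 CPM, and wild-type pools 2749 to 3403 CPM. In mutant pool 2 the footprint library held 3.57 3′ UTR footprints per 100 coding footprints, against 1.88 and 2.17 in the other mutant libraries and 1.87 to 1.97 in the wild-type libraries. On the first principal component of RNA, mutant pool 2 lay at −3.80 and mutant pools 1 and 3 at 27.6 and 12.5. The wild-type pools lay at −14.3 to −10.9. In footprints the values were −5.21, against 35.9 and 12.8, with wild type at −15.7 to −12.7. Mutant pool 2 was thus the mutant pool nearest wild type in both assays, and fits without it keep the mutant pools farther from wild type. Markers of neural progenitors (12 genes) summed to 4407 to 5171 CPM in mutant RNA and 4770 to 4987 CPM in wild-type RNA. All 16 pan-neuronal markers were detected, with 6349 to 7275 CPM in mutant RNA and 7764.5 to 8082 CPM in wild-type RNA. The 14 cell cycle genes were all higher in mutant RNA, 1 of them past the threshold, with sums of 4201 to 4946 CPM in mutant and 3588 to 3851 CPM in wild type. Of the 6 surface epithelium markers 4 were detected, with sums of 2.37 to 4.44 CPM in mutant RNA and 2.30 to 3.48 CPM in wild-type RNA, and Krt5 and Krt14 were at 0.

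All 10 members were detected in every library. Per kilobase of counted coding sequence, Vangl2 and Celsr2 were the most abundant messages in both assays. Vangl2 RNA averaged 171 ± 9.32 CPM per kb in mutant and 197 ± 10.3 CPM per kb in wild type (SD, n = 3 each), and Celsr2 RNA averaged 137 ± 12.6 in mutant and 149 ± 13.8 in wild type. In wild-type RNA, Ryk (79.8 ± 1.01), Celsr3 (49.4 ± 3.52) and Celsr1 (22.8 ± 2.96) followed, then Prickle1 (12.7 ± 2.00), Prickle2 (11.7 ± 0.63), Ror2 (7.76 ± 0.47), Vangl1 (6.62 ± 0.26) and Ror1 (1.53 ± 0.37), all in CPM per kb. Of the neighbours in this order, only the ranges of Prickle1 and Prickle2 overlapped. Within families, Vangl2 was above Vangl1, Celsr2 above Celsr3 and Celsr1, and Ror2 above Ror1, while Prickle1 and Prickle2 overlapped. In bulk tissue, fewer cells that make a message and less message per cell cannot be told apart.

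In wild-type footprints per kilobase the order differed from that in RNA for Ryk, Celsr1, Celsr3, Prickle1 and Prickle2. Vangl2 (197 ± 4.45) and Celsr2 (92.4 ± 3.63) led again, followed by Celsr3 (21.4 ± 0.97), Prickle1 (18.1 ± 0.93), Ryk (16.1 ± 0.42), Prickle2 (10.7 ± 0.26), Celsr1 (9.35 ± 0.41), Ror2 (8.45 ± 0.60), Vangl1 (6.90 ± 0.16) and Ror1 (1.90 ± 0.22), in CPM per kb (SD, n = 3 each), and no 2 neighbours overlapped. Ryk ranked 3 among the members in RNA and 5 in footprints, and Celsr1 ranked 5 in RNA and 7 in footprints. Prickle1 moved up from 6 to 4, Celsr3 from 4 to 3 and Prickle2 from 7 to 6.

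**Figure D1:**
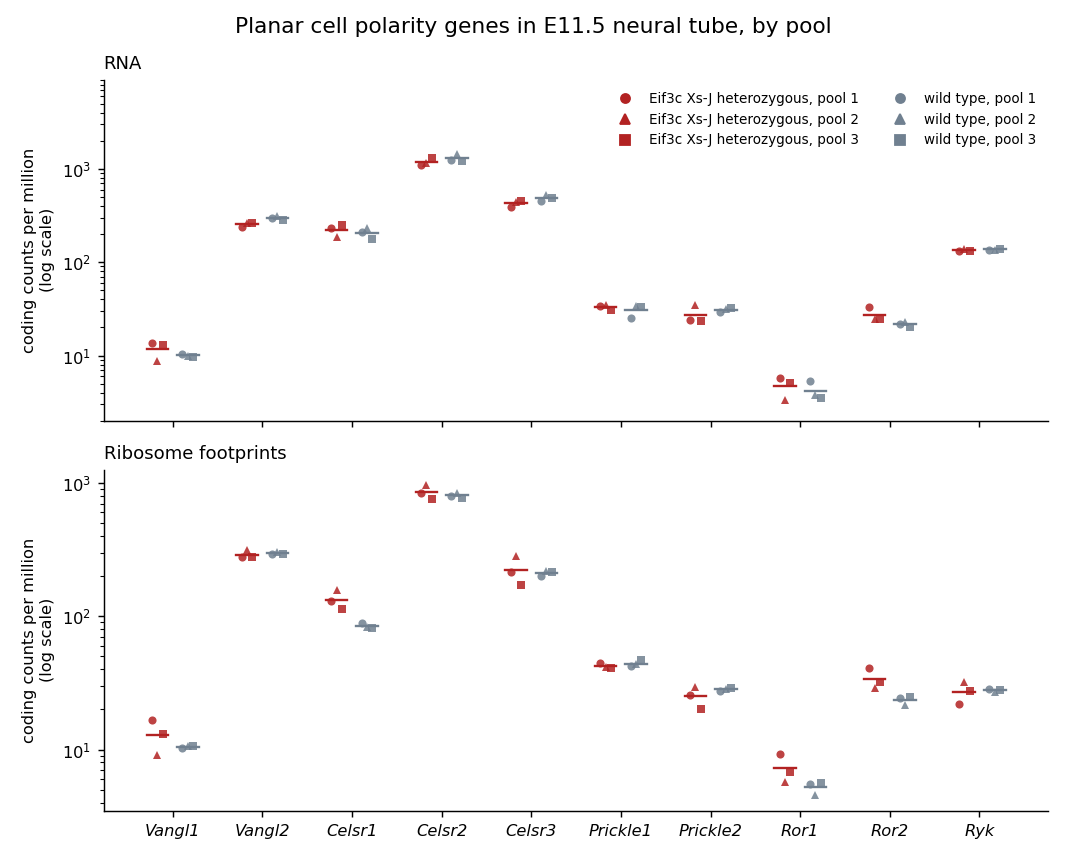
Coding CPM (log axis) of the 10 genes in each pool, RNA above and footprints below, with mutant pools left of wild-type pools. Short lines are means of 3 pools. In footprints the 3 mutant pools of Celsr1, Ror1 and Ror2 lie above all 3 wild-type pools. Groups did not overlap in 29.2% of all genes tested in footprints.

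How many footprints a message carried per RNA was compared between genes in wild type, as the assay term of the joint fit over 12 libraries, in which 0 is the average gene. Ryk and the 3 Celsr messages carried fewer footprints for their RNA than the average gene, and Prickle1 carried more. Ryk was the lowest, with a footprint-to-RNA ratio of 0.181, 0.248 and 0.222 in mutant pools 1, 2 and 3 and 0.221, 0.212 and 0.214 in the wild-type pools. The mutant pools spread more (SD 0.034) than the wild-type pools (SD 0.0048), and the wild-type log2 ratio was −2.21 ± 0.10 (SE, adjusted p = 8.56e-11). Only 4.08% of the 13877 genes tested had a lower value. Celsr1 had −1.19 ± 0.13 (adjusted p = 7.15e-07), Celsr3 −1.11 ± 0.13 (adjusted p = 2.64e-06) and Celsr2 −0.59 ± 0.10 (adjusted p = 7.38e-05). Prickle1 had 0.61 ± 0.10 (adjusted p = 7.07e-05). Of all genes tested, 13.7% were lower than Celsr1, 15.2% lower than Celsr3 and 27.1% lower than Celsr2. For Prickle1, 20.3% were higher. In all, 5 of the 10 members differed from the average gene, against 71.8% of all genes tested, so the count itself is below that of the background. The other 5 lay near or above the average gene and did not pass: Ror1 0.43 ± 0.23 (adjusted p = 0.100), Ror2 0.22 ± 0.14 (adjusted p = 0.173), Vangl1 0.15 ± 0.19, Vangl2 0.09 ± 0.07 and Prickle2 −0.04 ± 0.15. With the pool as a block, Ror1 (0.39 ± 0.16, adjusted p = 0.0374) and Ror2 (0.21 ± 0.09, adjusted p = 0.0340) passed as well, and 77.6% of all genes did.

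By family, every Celsr was below the average gene, and every Ror and Vangl estimate was above it without passing. Prickle1 had a mean ratio of 1.38 ± 0.08 in mutant and 1.55 ± 0.21 in wild type, and Prickle2 one of 1.00 ± 0.15 in mutant and 0.98 ± 0.02 in wild type (SD, n = 3 each). The Celsr messages are among the longest coding sequences of the data, with 9105 bases for Celsr1, 8760 for Celsr2 and 9930 for Celsr3, each longer than at least 98.9% of the genes tested. Ryk has a coding length of 1785 bases, longer than 62.8% of the genes tested, and a coding GC content of 50.7%. Coding GC content is 59.8% for Celsr1, 59.6% for Celsr2 and 58.7% for Celsr3. A relation of coding length or GC content to the ratio was not tested.

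**Figure D2:**
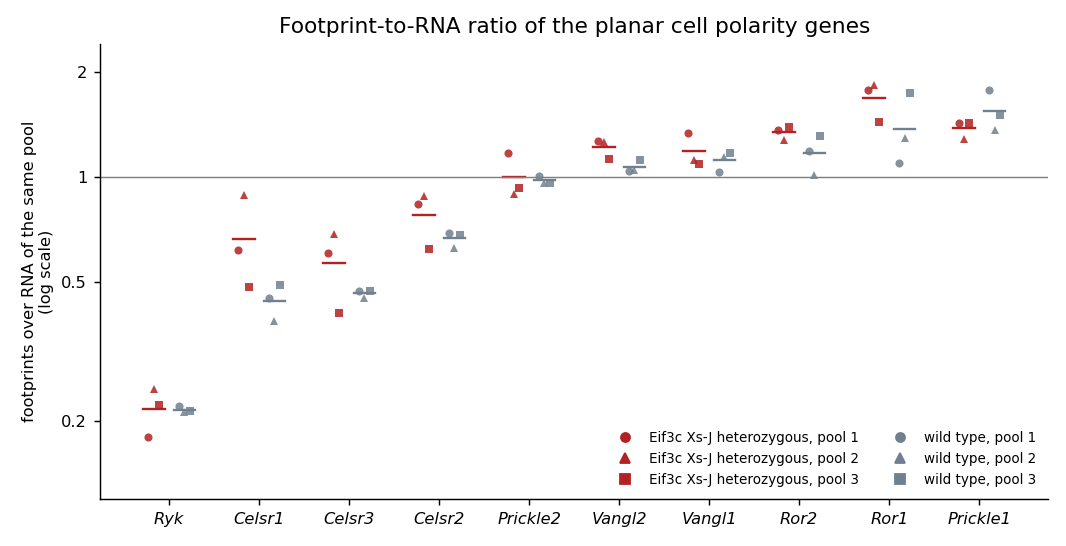
Footprints over RNA of the same pool (log axis, line at 1) for the 10 genes, ordered by the wild-type mean, with mutant pools left of wild-type pools and short lines at the means of 3 pools. Ryk lies near 0.22 in both genotypes, the Celsr genes between 0.387 and 0.888, and the remaining genes near or above 1.

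Ryk also carried footprints ahead of its coding sequence. Relative to the coding sequence of the same gene, its 5′ UTR held more per base in wild type than that of any other tested member. Enough 5′ UTR footprints for the test were present in 7 members. Over its annotated 5′ UTR of 139 bases there were 64.1, 22.5 and 43.8 footprints per 100 coding footprints in mutant pools 1, 2 and 3, and 21.9, 25.6 and 25.3 in the wild-type pools. Per base, the 5′ UTR held 5.03 times the footprints of the coding sequence in mutant and 2.92 times in wild type, and the wild-type value exceeded that of 88.8% of the 10505 genes tested. In RNA the same stretch held 0.49 times the coding density in mutant and 0.41 times in wild type. The 5′ UTR contains an ATG at chr9:102834956-102834958 (mm10, plus strand, exon 1), 100 bases ahead of the annotated start codon at chr9:102835056-102835058. It opens a frame of 11 codons whose stop ends 64 bases before that start codon. Upstream frames of this kind are generally known to reduce the number of ribosomes that reach the main frame. Whether the frame in Ryk does so was not tested. A shorter annotated Ryk 5′ UTR of 84 bases divides the 139 bases into a near and a far stretch. The far 55 bases held 392 of 426 5′ UTR footprints in mutant and 678 of 717 in wild type (92.0% and 94.6%), against 80 of 177 RNA counts in mutant and 58 of 132 in wild type. The upstream ATG lies in the far stretch and its stop in the near one. Counts by single position were not analysed here, so footprints at the upstream ATG cannot be set apart from others in the far stretch.

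The sequences around the start codons, where translation begins, are shown for those of the 5 genes that differed from the average gene whose annotated transcript gives one (GENCODE vM21, mm10). A relation of these letters to the ratio was not tested. Capitals mark an ATG and, for the annotated starts, the base after it; Celsr1 has only 7 annotated bases ahead of its start codon, and the Celsr3 transcript used has none.
Ryk upstream frame: cggcggcgcgATGagctggccggccgcccc
Ryk: ggcggcggccATGC
Celsr1: ccgggccATGG
Celsr2: acagggagagATGC
Prickle1: cttcattattATGC
All 9 members with annotated bases ahead of the start codon, the 4 above included, carried a purine at the third base before it, as did 85.7% of 13022 genes. The base after the ATG was G in Vangl1, Vangl2, Celsr1 and Ror2, and in 52.5% of the genes. Ryk and Celsr2 carried G at the third base before the ATG and C after it, and Prickle1 carried A and C. Upstream ATGs were found in 3 further members. That of Vangl2 opens 3 codons, that of Prickle1 4 codons, and that of Ror1, 49 bases before the start, opens 43 codons and runs past the start codon in another frame.

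In mutant neural tubes the RNA of the planar cell polarity genes stayed close to wild type. None of the 10 members passed the test in RNA, against 0.388% of the 13406 genes tested, and their log2 changes ran from −0.21 to 0.35 with a median of 0.04, beside 0.01 for all genes. Vangl2 had 241, 265 and 264 CPM in mutant pools 1, 2 and 3, against 301, 311 and 280 CPM in the wild-type pools. Its groups did not overlap, with a log2 change of −0.21 ± 0.07 (SE, adjusted p = 0.129). Celsr3, the Celsr of post-mitotic neurons, had 390, 440 and 450 CPM in mutant and 452, 522 and 488 CPM in wild type. Here too the groups stood just apart (−0.19 ± 0.08, adjusted p = 0.217). The pan-neuronal markers were also lower in mutant RNA in 15 of 16 cases, 0 of them past the threshold, and their part in the Celsr3 values was not tested. Ror2 had 33.3, 24.4 and 24.7 CPM in mutant and 21.7, 22.7 and 20.2 CPM in wild type, and was the member with the highest estimate (0.35 ± 0.13, adjusted p = 0.186). Groups did not overlap in 3 of the 10 members, against 22.2% of all genes tested. Ryk was the steadiest, with 133, 140 and 132 CPM in mutant and 137, 136 and 140 CPM in wild type.

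Without mutant pool 2, 3 members passed in RNA, when 1528 genes in all did: Vangl2 (−0.24 ± 0.07, adjusted p = 0.0400), Prickle2 (−0.40 ± 0.10, adjusted p = 0.0226) and Ror2 (0.42 ± 0.13, adjusted p = 0.0486). Prickle2 was split by that pool, with 24.2, 35.1 and 23.3 CPM in mutant pools 1, 2 and 3, against 29.2, 31.8 and 32.3 CPM in the wild-type pools. Without mutant pool 1, the estimate of Ror2 was 0.18 ± 0.11.

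In footprints, Celsr1, Ror2 and Ror1 had every mutant pool above every wild-type pool. Groups did not overlap in these 3 of the 10 members, against 29.2% of all genes tested, so the count is near the background. None of the 10 passed the threshold, against 0.253% of the 13423 genes tested; Celsr1 and Ror2 were the nearest to it. Celsr1 had 129, 156 and 113 CPM in mutant pools 1, 2 and 3, against 88.7, 83.5 and 81.4 CPM in the wild-type pools. Every mutant pool was above every wild-type pool, with a 1.57-fold higher level (log2 change 0.65 ± 0.11, adjusted p = 0.0522), and 2.53% of all genes tested had a larger value. Its RNA overlapped between genotypes, with 230, 188 and 250 CPM in mutant and 209, 232 and 178 CPM in wild type (0.11 ± 0.11, adjusted p = 0.651). Celsr2 (842, 959 and 762 CPM in mutant, 800, 838 and 775 CPM in wild type) and Celsr3 (215, 281 and 172 CPM in mutant, 201, 219 and 215 CPM in wild type) overlapped. The 3 Celsr genes shared their order of mutant pools, with pool 2 the highest and pool 3 the lowest.

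Mutant pool 2 was also where footprints lay outside the coding sequence of several of these genes. Celsr1 had 5.93 3′ UTR footprints per 100 coding footprints there, against 0.62 and 0.77 in mutant pools 1 and 3 and 0.40 to 0.53 in wild type. Celsr2 had 2.85 there, against 0.31 and 0.49 in the other mutant pools and 0.15 to 0.20 in wild type. Vangl2 had 8.22 there, against 2.77 and 3.51 in the other mutant pools and 3.09 to 3.44 in wild type, and Prickle2 8.66, against 0.69 and 0.66 in the other mutant pools and 0.81 to 1.80 in wild type. On few counts, Vangl1 had 11.7 there (13 footprints), against 0 and 4.57 in mutant pools 1 and 3 and 1.15 to 1.64 in wild type. Ror2 had 1.97 there (7 footprints), against 0.65 and 0 in mutant pools 1 and 3 and 0.35 to 0.54 in wild type. Prickle1 (0.39 there and 0.96 to 1.60 in wild type), Ryk (1.77 there, 1.70 in mutant pool 3 and 0.66 to 1.08 in wild type) and Ror1 (no 3′ UTR footprint there) did not show such an excess. Ribosomes leave the message at the stop codon, so intact mRNA carries few footprints beyond it; in RNA, Celsr1 had 20.8 to 22.0 3′ UTR counts per 100 coding counts in mutant and 19.3 to 20.4 in wild type. The part of this in the coding values of pool 2 was not tested. With mutant pool 2 left out, Celsr1 was higher in mutant footprints by 0.50 ± 0.08 (adjusted p = 0.00630) among 2333 genes that then passed. Celsr2 then gave −0.01 ± 0.07 and Celsr3 −0.14 ± 0.09, below 0. With offsets for coding GC content, which is 59.8% for Celsr1, its value was 0.51 ± 0.11 (adjusted p = 0.0746).

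**Figure D3:**
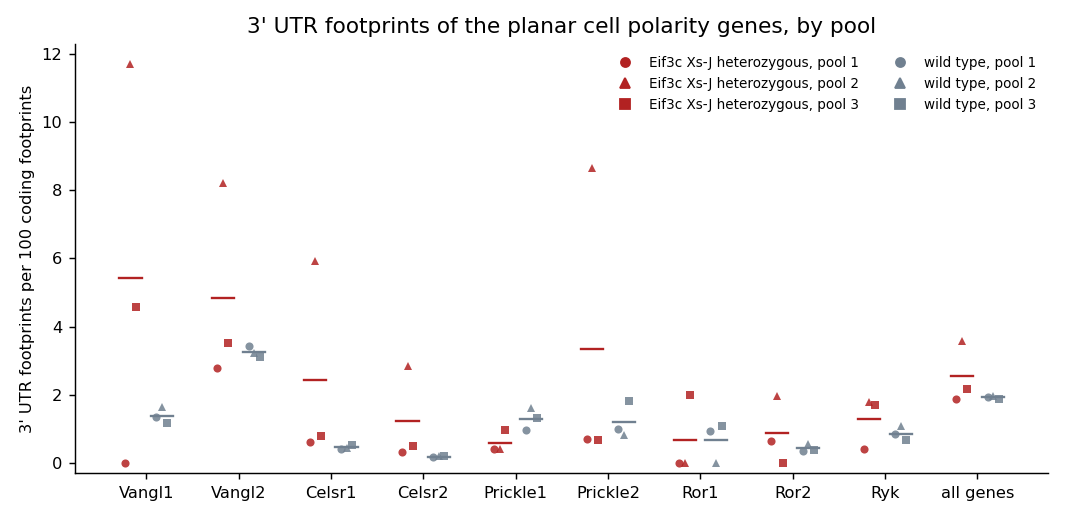
Footprints in the 3′ UTR per 100 coding footprints of the same library, for the 9 members with an annotated 3′ UTR and for all genes together, mutant pools left of wild-type pools, short lines at the means of 3 pools. Mutant pool 2 (triangles) reaches 11.7 for Vangl1, 8.22 for Vangl2, 5.93 for Celsr1 and 8.66 for Prickle2, while all wild-type values are at or below 3.44.

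Of the Wnt receptors, Ror2 had 41.2, 29.2 and 31.9 CPM in mutant footprints, against 24.2, 21.5 and 24.6 CPM in wild type. The groups did not overlap (log2 change 0.53 ± 0.13, 1.45-fold, adjusted p = 0.0875). Ror1, which bears the same kinase fold and is often made in the same tissues, had 9.18, 5.73 and 6.74 CPM in mutant, against 5.53, 4.53 and 5.64 CPM in wild type (0.44 ± 0.19, 1.36-fold, adjusted p = 0.198), from 70 to 103 counts a library in mutant and 78 to 326 in wild type. For both, mutant pool 1 was the highest. Leaving it out gave 0.38 ± 0.09 for Ror2 (adjusted p = 0.137) and 0.24 ± 0.16 for Ror1. Leaving out mutant pool 2 gave 0.62 ± 0.12 for Ror2 (adjusted p = 0.0123), when 2333 of 13618 genes passed. Ror2 is also made in embryonic mesenchyme. The 8 mesenchyme markers, all detected, summed to 1198 to 1904 CPM in mutant footprints, highest in pool 1, and to 1024 to 1195 CPM in wild-type footprints; in RNA they summed to 625 to 928 CPM in mutant and 537 to 917 CPM in wild type. Their part in the Ror values was not tested. Groups did not overlap for these 3 members (Celsr1, Ror1 and Ror2), against 29.2% of all genes tested.

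The Vangl, Prickle and Ryk messages did not pass in footprints, and their groups overlapped. Vangl2 had 277, 312 and 278 CPM in mutant and 294, 304 and 292 CPM in wild type (−0.04 ± 0.07, adjusted p = 0.766). Vangl1, which is scarce, had 16.7, 9.09 and 13.1 CPM in mutant and 10.2, 10.6 and 10.6 CPM in wild type (0.30 ± 0.19, adjusted p = 0.353). Its mutant pools spread on both sides of wild type. Without mutant pool 2 it passed at 0.49 ± 0.13 (adjusted p = 0.0343), when 2333 of 13618 genes did. Prickle1 had 44.3, 41.9 and 41.2 CPM in mutant and 42.2, 43.6 and 46.6 CPM in wild type (−0.06 ± 0.08). Prickle2 had 25.8, 29.3 and 20.1 CPM in mutant and 27.6, 28.6 and 28.9 CPM in wild type (−0.18 ± 0.13). Ryk had 21.8, 32.3 and 27.4 CPM in mutant and 28.5, 27.0 and 27.9 CPM in wild type (−0.03 ± 0.13), with mutant pools on both sides of wild type.

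**Figure D4:**
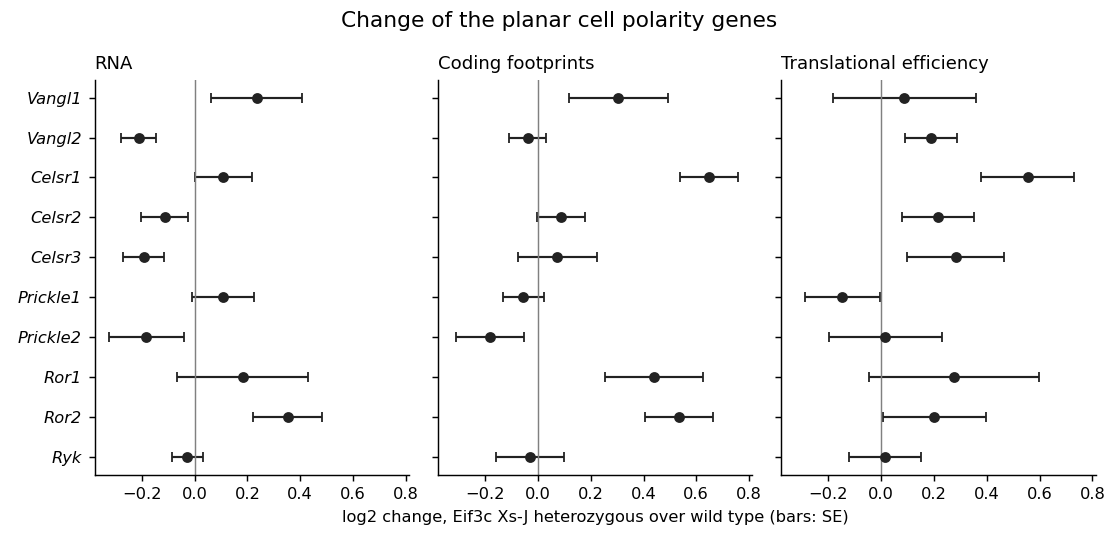
Log2 change of the 10 genes, mutant over wild type, in RNA, coding footprints and translational efficiency, with bars of 1 SE. Celsr1 has the largest estimate in footprints (0.65) and in translational efficiency (0.55). Of the 10 efficiency estimates, 9 lie above 0 (8 with offsets for coding GC content), as do 7478 of all 13877 genes tested.

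Translational efficiency, the change in footprints beyond that in RNA, was tested as the interaction of genotype and assay. No member passed, and 0% of the 13877 genes tested did; 1365 genes had an unadjusted p under 0.05, and DESeq2 called 20 genes, none of them a member. The estimates of 9 of the 10 members were above 0, with a median of 0.19 beside 0.02 for all genes. Among all 13877 genes tested, 7478 were above 0. With offsets for coding GC content 8 of the 10 were above 0, with a median of 0.05 beside 0.02 for all genes, and without mutant pool 1 it was 7 of the 10. Celsr1 led with 0.55 ± 0.18 (p = 0.00671 unadjusted, adjusted p = 0.430). Its footprint-to-RNA ratios were 0.617, 0.888 and 0.483 in mutant pools 1, 2 and 3, against 0.452, 0.387 and 0.490 in the wild-type pools, so mutant pool 3 lay within the wild-type range. Without mutant pool 2 its estimate was 0.31 ± 0.14. Vangl2 was the only member whose ratios did not overlap, at 1.27, 1.26 and 1.13 in mutant and 1.04, 1.05 and 1.12 in wild type (0.19 ± 0.10, adjusted p = 0.560), a pattern shown by 22.8% of all genes. With offsets for GC content the value of Vangl2 was 0.04 ± 0.12. Prickle1 alone was below 0 (−0.15 ± 0.14). With the pool as a block, 125 genes (0.901%) passed and again no member, Celsr1 at 0.54 ± 0.15 (adjusted p = 0.0880).

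The ratio of 5′ UTR to coding footprints could be tested in 7 members; Celsr1, Celsr3 and Prickle2 have 7, 0 and 10 bases of 5′ UTR in the transcripts used and too few counts. Groups overlapped in all 7, while they did not in 31% of all genes tested, and none of the 7 passed, against 9.54% of the 10505 genes tested, nearly all of which were higher in the mutant (972 higher, 30 lower). The median log2 change of these 7 was 0.23, as for all genes tested. Ryk had the largest estimate, 0.75 ± 0.27 (adjusted p = 0.0962), and 8.11% of all genes tested had a larger one. Its mutant pools differed among themselves, pool 1 and pool 3 above and pool 2 within the wild-type range. Without mutant pool 2 the value was 1.12 ± 0.18 (adjusted p = 5.97e-04), and without mutant pool 1 it was 0.43 ± 0.24 (adjusted p = 0.332). Vangl2 had 23.3, 17.8 and 26.4 5′ UTR footprints per 100 coding footprints in mutant and 16.8, 17.9 and 14.7 in wild type (0.43 ± 0.17, adjusted p = 0.108), again with mutant pool 2 within the wild-type range. Ror2 had 16.2, 12.1 and 14.2 in mutant and 9.48, 12.9 and 9.84 in wild type (0.45 ± 0.20, adjusted p = 0.155). Without mutant pool 2, Vangl2 (0.59 ± 0.13, adjusted p = 0.00364) and Ror2 (0.56 ± 0.20, adjusted p = 0.0395) passed beside Ryk, when 3150 genes in all did. Over all genes, the mutant libraries held 20.0, 16.5 and 19.3 5′ UTR footprints per 100 coding footprints, against 16.0 to 16.2 in the wild-type libraries.

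Within the coding sequence of Ryk, a stretch near its start held a larger share of the coding footprints in the mutant pools. A short annotated Ryk transcript counts codons 16 to 58 on their own, 7.48% of the counted length, and this stretch was singled out after its values were seen. It held 11.0%, 11.1% and 10.7% of the coding footprints in mutant pools 1, 2 and 3 (115 footprints in all), against 3.52%, 4.95% and 3.52% in the wild-type pools (114 in all). All 3 mutant pools were close together and above every wild-type pool, 2.74-fold higher on average, which is a description with no test. In RNA the same codons held 5.89%, 5.25% and 6.12% of coding counts in mutant and 6.74%, 6.14% and 4.78% in wild type, and the groups overlapped. Unlike the 5′ UTR ratio, this share was as high in mutant pool 2 as in the other mutant pools. The near 84 bases of the 5′ UTR lie ahead of this stretch, with the 15 uncounted codons between. These 84 bases had 3.27, 4.30 and 2.19 footprints per 100 coding footprints in mutant and 0.95, 1.94 and 1.54 in wild type. The counts were 8 to 17 footprints a library in mutant and 9 to 16 in wild type.

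The GC content of codons 16 to 58 of Ryk is 79.8%. Of 1798 stretches of this kind in 1323 genes (from codon 16, at most 25% of the coding sequence, at least 10 footprints a pool on average in each genotype), 2, that of Ryk included, showed a fold as large as that of Ryk, and groups did not overlap in 19.9%. The median fold over all these stretches was 1.00. In the 16 stretches with a GC content of at least 75%, however, the median was 1.46-fold and 14 were higher in the mutant. Groups did not overlap in 7 of these 16 (43.8%). The part of GC content in the Ryk share was not tested. Among the 6 stretches that could be counted in members, Vangl2 did not show this: codons 16 to 97 held 16.3%, 13.9% and 18.2% of its coding footprints in mutant and 17.8%, 18.7% and 17.6% in wild type. In footprints, groups stood apart in 1 other stretch, codons 2027 to 2907 of Celsr2, with 29.9 ± 0.41% in mutant and 28.9 ± 0.25% in wild type (SD, n = 3 each), a gap also present in its RNA (31.5 ± 0.11% in mutant, 30.7 ± 0.21% in wild type).

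**Figure D5:**
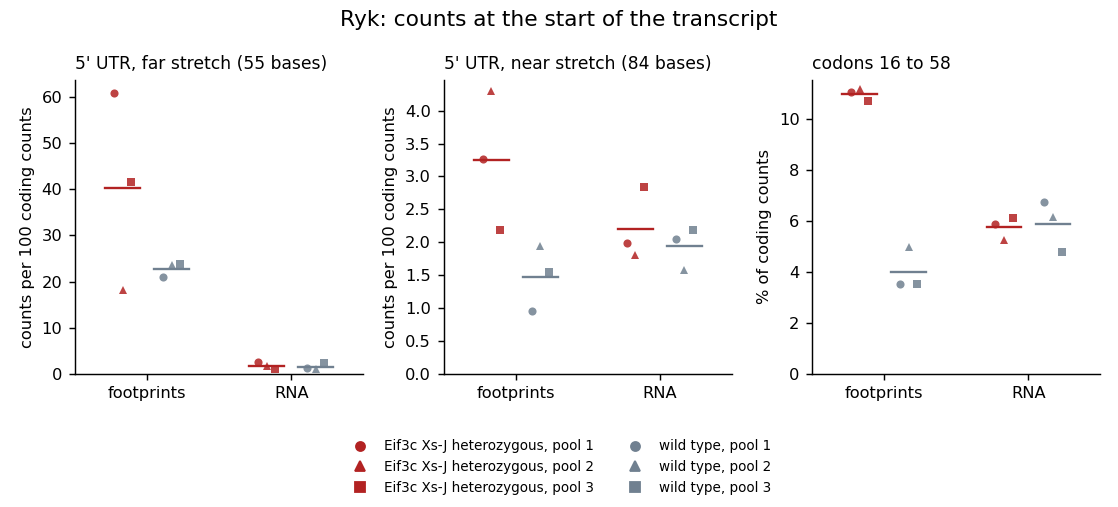
Counts at the start of the Ryk transcript in footprints and in RNA: the far and the near stretch of the 5′ UTR per 100 coding counts, and codons 16 to 58 as a percentage of coding counts, with mutant pools left of wild-type pools and short lines at the means of 3 pools. The far stretch reaches 60.8 and 41.6 in mutant pools 1 and 3 with pool 2 at 18.2, while codons 16 to 58 lie between 10.7% and 11.1% in all 3 mutant pools and between 3.52% and 4.95% in wild type.

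The wider pathway was read from 47 other genes in 5 roles: 6 ligands, 7 receptors and coreceptors, 15 cytoplasmic adaptors and regulators, 12 effectors and 7 genes of the Fat and Dachsous system, a separate pair of giant cadherins that also orients cells. In the main fits none passed in RNA, in footprints or in translational efficiency, with medians of −0.06, 0.00 and 0.10. The lowest values belonged to Daam2, a formin that links Dishevelled to actin, with 52.1 ± 11.7 CPM in mutant RNA and 78.9 ± 6.75 CPM in wild-type RNA (SD, n = 3 each). Its log2 change was −0.61 ± 0.14 in RNA (adjusted p = 0.0640) and −0.62 ± 0.12 in footprints (adjusted p = 0.0687). Daam2 passed in RNA without a filter (adjusted p = 0.00849, among 461 genes) and with the replicate block (0.0288, among 195 genes). It also passed there without mutant pool 1 (0.03755, among 74 genes) and without mutant pool 2 (0.0034, among 1528 genes). Its close relative Daam1 had −0.19 ± 0.08 in RNA and −0.27 ± 0.09 in footprints.

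All 7 genes of the Fat and Dachsous system had RNA estimates below 0, from −0.44 to −0.13 with a median of −0.29, and so they had under all alternatives tried, with a median of −0.13 without mutant pool 1. Of all 13406 genes tested, 6278 had an RNA estimate below 0. The pan-neuronal markers, whose RNA sums did not overlap between genotypes, had a median of −0.25 in RNA and the cell cycle genes one of 0.28, and their part in the values of the Fat and Dachsous genes was not tested. The cadherin Dchs1 had 430 ± 18.5 CPM in mutant and 536 ± 24.4 CPM in wild type (−0.32 ± 0.07, adjusted p = 0.0580), and Fjx1, the mouse four-jointed homologue, had 54.9 ± 2.62 CPM in mutant and 67.2 ± 2.21 CPM in wild type (−0.29 ± 0.07, adjusted p = 0.0765). Dchs1 passed in RNA without a filter (adjusted p = 0.0188, among 461 genes) and with the replicate block (0.0408, among 195 genes). Without mutant pool 2, Dchs1 (0.00629) and Fjx1 (0.0159) passed in RNA, among 1528 genes. In footprints Dchs1 had 0.05 ± 0.11 and Fjx1 0.08 ± 0.09, both below 0 with offsets for coding GC content, and their efficiency estimates were 0.39 ± 0.14 and 0.39 ± 0.11 (adjusted p = 0.432 and 0.430). The cadherin Fat3 had −0.30 ± 0.09 in footprints (adjusted p = 0.114). Among receptors, the Wnt receptor Fzd7 had 116 ± 6.64 CPM in mutant footprints and 94.5 ± 8.45 CPM in wild-type footprints (0.30 ± 0.08, adjusted p = 0.108), without a difference of that size in RNA (−0.08 ± 0.10). Among ligands, Wnt5b had 6.70 ± 0.97 CPM in mutant RNA and 4.58 ± 0.30 CPM in wild-type RNA (0.56 ± 0.18, adjusted p = 0.146). Among adaptors, Dvl2 (0.26 ± 0.08, adjusted p = 0.120) and Scrib (0.27 ± 0.10, adjusted p = 0.160) had the smallest p in footprints.

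In wild type, 28 of the 47 genes differed from the average gene in footprints per RNA, 10 higher and 18 lower, against 35.5% of all genes higher and 36.3% lower. Of the 15 adaptors and regulators 9 were lower, and Dvl1, 1 of the 3 Dishevelled genes, was the lowest of the pathway at −2.64 ± 0.11, below Ryk, while Dvl2 was above the average gene at 0.18 ± 0.07 (adjusted p = 0.0314). Of the 7 receptors and coreceptors 4 were higher, with the glypican Gpc4 at 1.35 ± 0.12 and Fzd7 at 0.92 ± 0.09. The ratio of 5′ UTR to coding footprints could be tested in 38 of the 47 genes, and 3 rose, all of them effectors: the small GTPase Rac1 (0.80 ± 0.16, adjusted p = 0.0114) and the kinases Rock1 (0.77 ± 0.18, adjusted p = 0.0203) and Rock2 (0.87 ± 0.24, adjusted p = 0.0386). Their share is near that of all genes. On leaving out 1 pool, Rac1 did not pass in 3 of 6 cases, and Rock1 and Rock2 in 4 of 6 each. Without wild-type pool 1 the adjusted p was 0.104 for Rac1, 0.156 for Rock1 and 0.198 for Rock2, and without wild-type pool 3 it was 0.0788, 0.0955 and 0.124. The other losses were without mutant pool 3 (Rac1 0.0640, Rock1 0.0650), mutant pool 1 (Rock1 0.0539, Rock2 0.116) and wild-type pool 2 (Rock2 0.0745). With the pool as a block Rock2 did not pass (adjusted p = 0.0626). In coding footprints the same genes had −0.05 ± 0.06, −0.21 ± 0.09 and −0.17 ± 0.08, none past the threshold.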

How the data were processed

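Per the submitters' processing notes, adapters were trimmed with cutadapt, reads were aligned to mm10 with STAR, and bedtools was used. The sources used here do not give versions, strand or counting position. The authors deposited counts for each lane, transcript and part of the transcript (5′ UTR, coding sequence, 3′ UTR). The coordinates in that table show that 15 codons at the start and 5 at the end of each coding sequence were not counted. Lanes of a library were summed, except 4 of mutant footprint pool 1 with counts on 3 chromosomes at most, and 1 transcript a gene was used, that with the highest coding total. GENCODE vM21 gave a gene for all but 148 of 122941 transcripts, 1522 of them by identifier without version, and 0.328% of coding counts had none. For Celsr3 the deposited transcript is an earlier version that holds only the coding sequence.

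Tests used R 4.3.3, edgeR 4.0.16 (quasi-likelihood, TMM, filterByExpr with a minimum count of 10), with p-values adjusted by Benjamini-Hochberg across every gene in a fit and a threshold of 0.05. Efficiency was the interaction of genotype and assay over 12 libraries, the wild-type ratio the assay term of the same fit, and 5′ UTR to coding footprints the interaction of region and genotype with the library as a block, for genes with at least 10 footprints of each region a library on average in each genotype. SE was derived from F and the log2 change. Ratios per pool use the joint TMM scaling. Biological variation between pools (edgeR) was 8.16% for RNA, 9.97% for footprints and 9.19% for both together. Limma 3.58.1 and DESeq2 1.42.0 were alternatives, with tables in Python 3.11.15. The tests were also tried on simulated counts. Per the labels' protocols, both libraries of a pool derive from 1 cell suspension, and their deviations correlated at 0.599, 0.523 and 0.308 in mutant pools 1, 2 and 3 and at 0.242, 0.231 and 0.349 in wild type, so fits with a pool block were added. Members, pathway and marker lists were chosen with earlier results of these data known. Besides the members and Eif3c, the rule names pathway genes that pass and those of smallest p in each role, of which a part is printed. Counting intervals are not given, and reads shared by similar genes cannot be assigned. Coding exons of the members overlap another gene only in Celsr3 (65 bases).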

Additional observations from a re-analysis of the deposited data

How the results depend on the processing

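The 0 members called in translational efficiency stood in all alternatives tried, and the 5 of the wild-type ratio stayed between 5 and 7. In RNA, 52 genes passed; without a filter 461 did, with the replicate block 195, with DESeq2 408, with limma-voom 87 and with GC offsets 2. Leaving out 1 pool gave 1 to 1528 genes and 0 to 3 members. In footprints, 34 genes passed; without a filter 243 did, with DESeq2 840, with limma-voom 130 and with all lanes summed 9, and the replicate block gave 38. Leaving out 1 pool gave 8 to 2333 genes and 0 to 3 members. Celsr1 passed in footprints without a filter, with limma-voom and with the replicate block (1 member each) and with DESeq2 (2 members, with Ror2). Efficiency gave 0 genes, 125 with the block, 20 with DESeq2, and 0 to 1 on leaving out 1 pool. The 5′ UTR ratio gave 1002 genes, 544 with the replicate block, and 44 to 3150 with 0 to 3 members on leaving out 1 pool. The wild-type ratio gave 8608 to 10460 on leaving out 1 pool. Calls in footprints were 30 higher and 4 lower, but 22 higher and 15 lower with GC offsets. Mutant and wild-type pools of 1 number correlated at 0.105, 0.0566 and 0.0741 in RNA and −0.0854, −0.0752 and −0.0265 in footprints. Pools of different numbers correlated at −0.0880 to 0.0076 in RNA and at −0.0285 to 0.0977 in footprints. Whether pools of 1 number have more in common than the number was not tested. Signs turned for values that were not called. Leaving out 1 pool gave log2 changes of −0.0192 to 0.189 for Prickle1 in RNA, −0.176 to 0.0994 for Ryk, −0.0124 to 0.161 for Celsr2 and −0.139 to 0.231 for Celsr3 in footprints, −0.0044 to 0.146 for Vangl1, −0.108 to 0.0918 for Prickle2 and −0.0988 to 0.119 for Ryk in efficiency, and −0.180 to 0.0925 for Celsr2, −0.0693 to 0.227 for Ror1, −0.0660 to 0.416 for Prickle1 and −0.0293 to 0.188 for Eif3c in the 5′ UTR ratio. With GC offsets, footprints of Celsr2 (−0.0502), Celsr3 (−0.0471) and Fzd2 (−0.0527) and the efficiency of Prickle2 (−0.0644, and −0.0019 with all lanes) turned as well. The cause was not tested. Ror1, with 25 to 76 RNA counts a library, is the member that depth limits most.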
